A study of Mus musculus with 8 samples.

Results

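The genes described here encode the proteins of the cytosolic ribosome. They were chosen by symbol in both count tables. A symbol had to be Rps or Rpl plus a number and at most a single letter (a, l or x), with a final digit allowed. Rpsa, Rplp0, Rplp1 and Rplp2 were also taken. Entries named as pseudogenes (-ps), ribosomal S6 kinases and symbols with more letters, such as Rpl36al, were left out. The rule gave 84 of the 34399 gene symbols, 33 named for the small (40S) subunit and 51 for the large (60S) subunit, and each had a single entry. A ribosome decodes mRNA on its small subunit and joins amino acids on its large subunit, and each subunit is built from ribosomal RNA and a fixed set of proteins. Most of these proteins are made in matched amounts from genes that are active in every cell type, and many of their mRNAs begin with a run of pyrimidines, the 5′ terminal oligopyrimidine (TOP) tract, through which growth signals adjust their translation. Activated fibroblasts of the injured heart secrete large amounts of matrix protein, and ribosome supply belongs to that secretory work.

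RNA came from GFP+ cardiac fibroblasts sorted from mouse ventricles 4 weeks after TAC, a surgical narrowing of the aorta that overloads the heart. All mice were operated on at 8 to 10 weeks of age, carried an eGFP reporter in the Rosa locus that Cre switches on, and received tamoxifen to activate MerCreMer, an inducible Cre. In one sequencing run, called the Postn run, MerCreMer lay in the Postn locus, a gene of activated fibroblasts, and 2 control libraries (HK3, HK4) were set against 2 labelled Smad2/3 DKO (HK15, HK16; Smad2 flox/flox and Smad3 flox/flox). In the other, called the Tcf21 run, MerCreMer lay in the Tcf21 locus, a gene of resident fibroblasts, and 2 control libraries (HK6, HK7) were set against 2 labelled as deficient in both Tgfb receptors (HK2, HK4; Tgfbr1 and Tgfbr2 flox/flox), called Tgfbr1/2 DKO below. TGF-beta receptors signal to the nucleus through Smad2 and Smad3, so the comparisons remove successive steps of one pathway, but they also differ in sequencing run and in Cre driver, and these cannot be told apart from the targeted genes. The controls carried the driver and the reporter without the floxed alleles. The labels do not say whether 2 libraries of a group came from separate mice, so the spread behind each p-value may be technical only.

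The libraries held 21477742 to 32594649 counts. Levels are in CPM, the count scaled to a library of 1000000 counts, and 3 counts equal 0.092 to 0.14 CPM. Reads over the whole targeted genes were no check of the labels, because floxed alleles can leave most of a transcript in place. Smad2 measured 95.4 and 82.3 CPM in the Postn controls and 84.5 and 78.2 in the Smad2/3 DKO libraries, and Smad3 measured 113.8 and 92.7 against 70.5 and 109.0. Tgfbr1 measured 229.3 and 237.9 CPM in the Tcf21 controls and 181.4 and 192.6 in the Tgfbr1/2 DKO libraries, and Tgfbr2 measured 370.1 and 406.2 against 470.7 and 406.1. None of the 4 genes passed the test in the comparison that targets it. The summed level of 12 fibroblast markers, collagens among them, ran from 19393 to 47457 CPM over all libraries, against 129 to 260 CPM for 12 cardiomyocyte markers and 32.2 to 223 CPM for 11 myeloid markers.

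The start sites of ribosomal protein genes are shown first, because the pyrimidine tract is the feature that the family is known to share. Of the 84 genes, 63 had a promoter entry in RefSeq (GRCm38.p6). A run of at least 5 C or T that holds the first transcribed base was present in 20 of these 63 genes, or 31.7%, against 11.8% of all 27025 genes with an entry. The lines below give 15 bases on each side of the annotated start, on the transcribed strand, with the C/T run that holds the first transcribed base in capitals. Rpl35, Rpl15, Rps10 and Rpl28 are shown for their long runs, Rps6 and Rplp2 for their roles below, and Rps2 and Rpsa because they passed the test in a comparison.
Rpl35, chr2:39005117-39005146, minus strand: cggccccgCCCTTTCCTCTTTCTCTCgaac
Rpl15, chr14:18270972-18271001, minus strand: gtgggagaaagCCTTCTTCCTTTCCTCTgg
Rps10, chr17:27635230-27635259, minus strand: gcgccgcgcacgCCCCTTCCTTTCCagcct
Rpl28, chr7:4792950-4792979, plus strand: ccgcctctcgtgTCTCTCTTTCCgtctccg
Rps6, chr4:86857353-86857382, minus strand: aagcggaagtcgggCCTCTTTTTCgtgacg
Rplp2, chr7:141447636-141447665, plus strand: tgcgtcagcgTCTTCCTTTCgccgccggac
Rps2, chr17:24720048-24720077, plus strand: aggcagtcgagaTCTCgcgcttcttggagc
Rpsa, chr9:120127751-120127780, plus strand: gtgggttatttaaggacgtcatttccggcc

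The run is 18 bases long in Rpl35, 17 in Rpl15, 13 in Rps10 and 11 in Rpl28, and it is 10 bases long in both Rps6 and Rplp2. It is counted on both sides of the annotated start, so part of it can lie before the first transcribed base. These lengths are therefore not lengths of a TOP tract in the mRNA. The run is 4 bases long at the annotated start of Rps2, and at that of Rpsa the first base is not a pyrimidine. An annotated start can lie some bases from the one used in a cell, so a short run says only that these letters are not at this position. In the window from 250 bases before to 50 after the start, CTTTCC, which lies inside several of the printed runs, stood on either strand of 52.4% of the 63 genes and of 29.3% of all genes. CCGGAAGT, a sequence that ETS factors are known to bind, stood on either strand of 19.0% of the 63 genes and of 4.31% of all genes. TATAAA, the core of the TATA box, stood on either strand of 11.1% and 15.7%, and on the transcribed strand of 9.52% and 9.77%.

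Transcripts of the 84 genes together took 1.05% and 0.874% of the counts in the Postn control libraries (HK3, HK4) and 1.21% and 1.25% in the Smad2/3 DKO libraries (HK15, HK16). They took 1.91% and 2.26% in the Tcf21 controls (HK6, HK7) and 2.85% and 2.70% in the Tgfbr1/2 DKO libraries (HK2, HK4). Both DKO libraries lay above both controls of their run, and both Tcf21 controls lay above every library of the Postn run. The share was 0.961% ± 0.124 (SD, n = 2) in Postn controls against 1.23% ± 0.0267 in Smad2/3 DKO, and 2.08% ± 0.247 in Tcf21 controls against 2.77% ± 0.106 in Tgfbr1/2 DKO. The DKO share was thus 1.28 times the control share in the Smad2/3 comparison and 1.33 times in the Tgfbr1/2 comparison. With 2 libraries a group, no exact permutation test could reach 0.05, so the shares are given without a test. Both subunits took a larger share in the DKO libraries. The 40S share was 0.325% in Postn controls and 0.438% in Smad2/3 DKO, and the 60S share 0.636% and 0.795%. For Tcf21 controls and Tgfbr1/2 DKO they were 0.721% and 0.966%, and 1.36% and 1.81%. Fewer cells of a type and less RNA per cell cannot be told apart in these bulk samples, nor can a gain of ribosomal transcripts from a loss of others, since shares add up to a fixed total. Malat1, an abundant nuclear RNA, measured 27853 and 36029 CPM in the Postn controls and 48941 and 46865 in the Smad2/3 DKO libraries, but 27421 and 20922 in the Tcf21 controls and 8879 and 9317 in the Tgfbr1/2 DKO libraries. Malat1 was therefore above its controls in one comparison and below them in the other, while the ribosomal share was above its controls in both, and its part in the result was not tested.

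**Figure D1:**
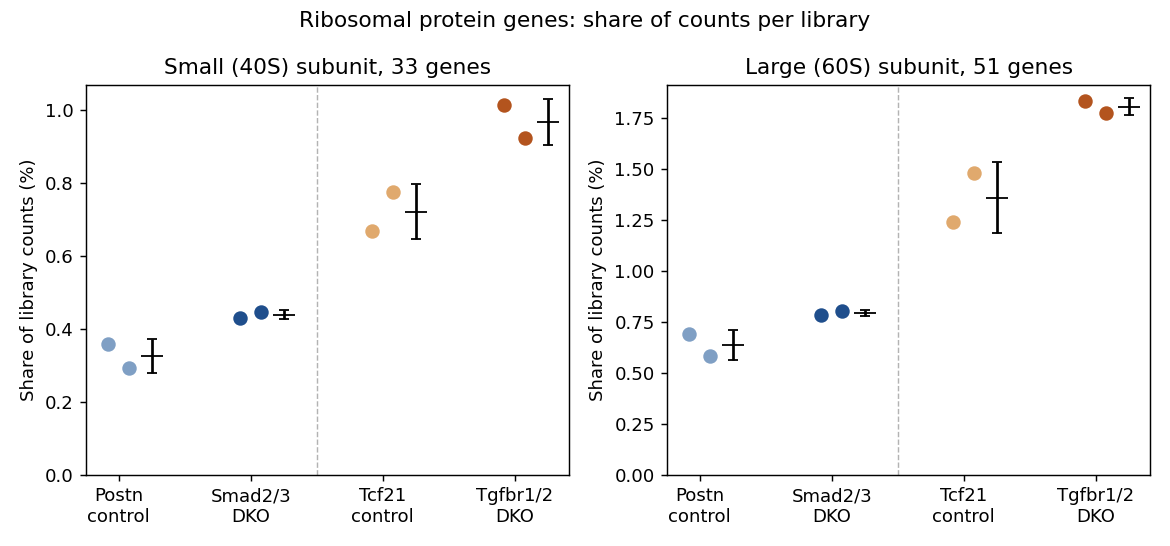
Share of each library's counts (percent, axis from 0) taken by small-subunit genes (left) and large-subunit genes (right) in the 4 groups; points are libraries, and the bar is the group mean with its SD (n = 2). Both DKO libraries lie above both controls of their run in each panel, and the 60S share runs from 0.582% to 1.84%.

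Levels between genes are compared per kilobase of transcript, with paralogs, the pseudogene Rps12l1 and the entry labelled Rpl24 left out. Over all 8 libraries, the highest means were those of Rpl31 (1618 CPM per kb), Rpl10 (1337), Rpl10a (868), Rps6 (737) and Rps27 (697). Rps6 is the small-subunit protein phosphorylated by the S6 kinases downstream of mTOR, and Rpl10 joins the large subunit late in its assembly. The members were far from equal: the SD of log2 CPM per kb over 76 genes was 1.32 and 1.31 in the Postn controls, 1.17 in both Smad2/3 DKO libraries, and from 0.90 to 0.98 in the libraries of the Tcf21 run. In Postn control HK3 the gene at the 90th percentile stood 10.5-fold above that at the 10th percentile, and in Tcf21 control HK6 3.83-fold above it. The paralogs are genes that resemble a ribosomal protein gene, and their mean levels over the 8 libraries were low. Rpl10l and Rpl39l, known from the male germ line, were at 0 in every library, and Rpl3l, a copy known from heart and skeletal muscle, reached at most 0.504 CPM. Rpl7l1, Rpl22l1 and Rps27l were expressed, at means of 20.3, 41.5 and 44.9 CPM per kb. Rps20 lay in the same range at 36.7, a value that rests on a principal transcript of 3706 bases.

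The entry labelled Rpl24 needs a remark. Its identifier, ENSMUSG00000022601, belongs in GENCODE vM21 to Zbtb11, a neighbouring gene on chromosome 16, and its level, 261 to 342 CPM in all libraries, is not read as that of Rpl24. The entry stays in the shares, counts and medians because the rule selects it, and it is 1 of the 3 members below 0 in the Smad2/3 comparison. Without it and Rps12l1 the medians of the Smad2/3 and Tgfbr1/2 comparisons were 0.42 and 0.50, as with them. Rps12l1 is annotated as a processed pseudogene and measured at most 0.0881 CPM. Entries named as pseudogenes of these genes (218 in all) summed to 107 to 205 CPM per library. Only 0.306% of the positive values of the 84 genes were whole numbers (within 0.001), against 13.4% of all positive values. The values are thus mostly estimates, not whole counts. These percentages were not compared at equal level and do not show that reads were split between copies. How reads that fit several copies were counted is not given, so transfer of reads between a gene and its copies remains possible for each member.

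In the Smad2/3 comparison, the ribosomal protein genes lay above their controls almost as one group, by a median log2 fold change of 0.42, but no single gene passed the test. Of the 84, 80 were tested after the low-count filter, 77 had a log2 fold change above 0 and 3 below. None had an adjusted p under 0.05 (edgeR quasi-likelihood test, Benjamini-Hochberg over 15764 genes), where 1.31% of all tested genes passed in either direction and 0.45% were higher. At an unadjusted p under 0.05, 34 of the 80 were higher and 0 lower, against 6.23% of all tested genes higher and 7.33% lower. DESeq2 called 3 of 80, all higher, where it called 1.96% of all tested genes higher. Both Smad2/3 DKO libraries lay above both controls for 66 members (25.4% of all tested genes) and below both for 1 (18.9%). Over all tested genes the median was 0.007 and 50.6% of the log2 fold changes were above 0. The 32 tested small-subunit genes had a median of 0.47 and all lay above 0. The 48 large-subunit genes had a median of 0.39, and 45 lay above 0. The size moved with the control libraries: without Postn control HK4 the median was 0.27, and without Postn control HK3 it was 0.58.

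**Figure D2:**
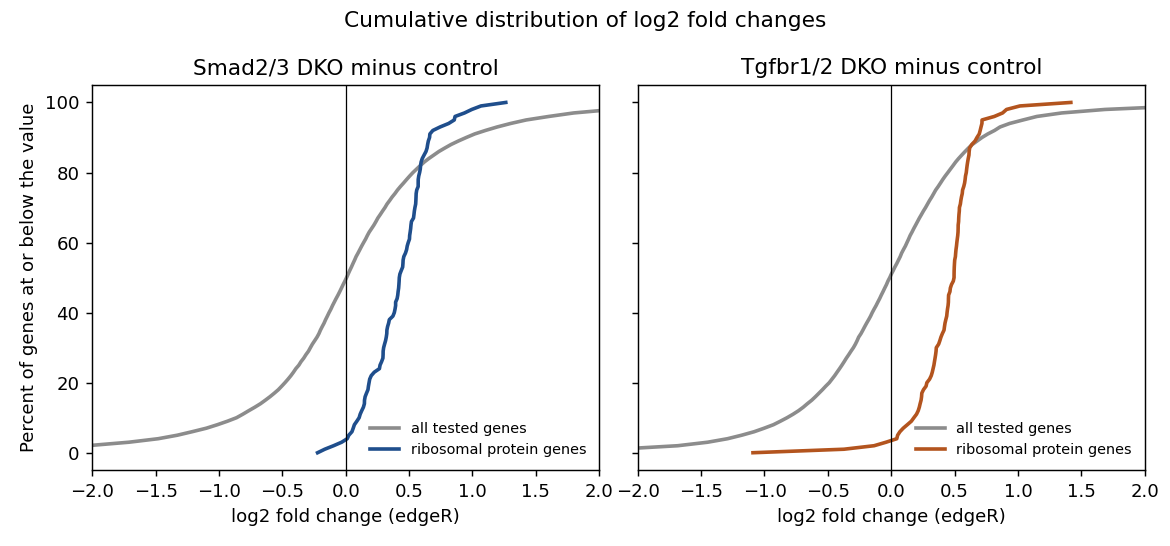
Cumulative percent of genes (vertical axis) at or below each log2 fold change (horizontal axis, shown from −2 to 2) for ribosomal protein genes (coloured) and all tested genes (grey), in the Smad2/3 comparison (left) and the Tgfbr1/2 comparison (right). The curve of the ribosomal protein genes is steep and crosses 50% at 0.42 and 0.50, while that of all tested genes crosses near 0.

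The highest values in the Smad2/3 comparison belonged to genes of low level in the Postn controls. That level is the base of the fold change, so the level and the fold change are not independent. Rps14, a small-subunit protein of the platform, measured 11.5 and 8.49 CPM in the Postn controls and 24.7 and 25.3 in the Smad2/3 DKO libraries. Both DKO libraries lay above both controls, and the log2 fold change was 1.26 ± 0.32 (SE; adjusted p = 0.095, edgeR). Rps14 passed in 3 alternatives, with DESeq2 (adjusted p = 0.00759), with all 8 libraries fitted together with edgeR (0.0179) and without the low-count filter (0.0178). In the Tcf21 controls it stood at 142.4 and 155.5 CPM and in the Tgfbr1/2 DKO libraries at 176.6 and 144.1, and these groups overlapped. Rps14 overlaps Ndst1 on the opposite strand, and Ndst1 measured 74.4 to 94.8 CPM in the Postn run, lower in both Smad2/3 DKO libraries than in both controls.

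Rpl37a, a small zinc-binding protein of the large subunit, measured 18.1 and 15.2 CPM in the Postn controls and 35.0 and 35.3 in the Smad2/3 DKO libraries. The groups did not overlap, and the log2 fold change was 1.02 ± 0.27 (SE; adjusted p = 0.107 with edgeR and 0.0125 with DESeq2). Rps21 measured 7.07 and 5.17 CPM against 11.9 and 13.3, without overlap (0.98 ± 0.40, adjusted p = 0.296 with edgeR). Among the members printed with a long pyrimidine run, Rpl35 (14.9 and 18.5 against 32.2 and 30.6 CPM) and Rps10 (20.3 and 13.3 against 28.6 and 32.2 CPM) had higher values in both DKO libraries, with log2 fold changes of 0.86 ± 0.28 and 0.80 ± 0.31. At the other end lay Rpl15, with 272.6 and 274.0 CPM in the Postn controls and 234.1 and 253.7 in the Smad2/3 DKO libraries (−0.22 ± 0.15, adjusted p = 0.580 with edgeR). It was the only member lower in both DKO libraries than in both controls.

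In the Tgfbr1/2 comparison, 2 ribosomal protein genes rose and the family as a whole again lay above its controls, by a median log2 fold change of 0.50. Of 81 tested members, Rps2 and Rpsa passed, both higher (edgeR, Benjamini-Hochberg over 16661 genes), which is near the 2.63% of all tested genes that were called higher (3.94% in either direction). The log2 fold change was above 0 for 78 members and below for 3, against 49.1% of all tested genes above 0 and an overall median of −0.012. At an unadjusted p under 0.05, 45 members were higher and 0 lower (11.3% of all tested genes higher and 8.72% lower). Both DKO libraries lay above both controls for 64 members (21.7% of all tested genes) and below both for 2, Rps9 and Rpl3l (29.3%). The medians were 0.50 for 32 small-subunit genes and 0.49 for 49 large-subunit genes. The count of calls depended on the tool: DESeq2 called 9 of 81 members higher (4.32% of all tested genes) and a fit without the low-count filter 8 of 82 (3.15%).

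Rps2, a small-subunit protein at the entry of the mRNA channel, measured 226.6 and 256.1 CPM in the Tcf21 controls and 608.7 and 611.8 in the Tgfbr1/2 DKO libraries. The DKO values were far above both controls and nearly equal to each other. Its log2 fold change was 1.42 ± 0.21 (SE; adjusted p = 0.0071, edgeR), and without any one of the 4 libraries it ran from 1.29 to 1.57 with an adjusted p of at most 0.032. For Smad2/3, Rps2 measured 72.0 and 64.5 CPM in the Postn controls and 97.4 and 97.5 in the Smad2/3 DKO libraries (0.45 ± 0.19, adjusted p = 0.309). Rps2 (chr17:24718116-24721929, plus strand) overlaps Snhg9 on the opposite strand, and Snhg9 measured at most 0.134 CPM in any library, near the value of 3 counts.

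Rpsa, which serves both as a small-subunit protein and as a laminin-binding protein at the cell surface, measured 361.4 and 428.4 CPM in the Tcf21 controls and 675.4 and 724.9 in the Tgfbr1/2 DKO libraries. The groups did not overlap, and the log2 fold change was 0.91 ± 0.22 (SE; adjusted p = 0.0487, edgeR). The call was lost without each of the 4 libraries, with an adjusted p of up to 0.238, and also with size factors of the DESeq2 type and without robust estimation. For Smad2/3, Rpsa measured 107.4 and 116.4 CPM against 182.1 and 160.7, again without overlap (0.56 ± 0.17, adjusted p = 0.143). The authors' deposited table lists log2 fold changes of 1.34 for Rps2 and 0.83 for Rpsa in the Tgfbr1/2 comparison.

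Below these lay members that did not pass with edgeR. Rpl22l1, a paralog of the RNA-binding protein Rpl22, measured 19.1 and 25.5 CPM in the Tcf21 controls and 47.8 and 32.7 in the Tgfbr1/2 DKO libraries (0.92 ± 0.24, adjusted p = 0.0661 with edgeR and 0.0245 with DESeq2). Rpl22 itself measured 120.7 and 143.8 CPM against 144.1 and 115.5, with overlapping groups (0.04 ± 0.19). Rpl15 measured 419.7 and 514.2 CPM against 737.3 and 840.1, with both DKO libraries above both controls (0.84 ± 0.23, adjusted p = 0.0758 with edgeR and 0.0122 with DESeq2). Rps9, a small-subunit protein that also lines the mRNA entry, had lower values, with 209.2 and 232.2 CPM in the Tcf21 controls and 198.0 and 193.2 in the Tgfbr1/2 DKO libraries (−0.10 ± 0.19, adjusted p = 0.827). Cell type markers also differed in this comparison, where 2.63% of all tested genes were called higher and 1.31% lower. The summed level of 11 myeloid markers was 58.8 to 85.2 CPM in the Tcf21 controls and 206 to 223 in the Tgfbr1/2 DKO libraries, with 5 of 11 called higher, and that of 8 epicardial markers was 46.4 to 84.0 against 429 to 445, with 2 called higher. Endothelial markers summed to 424 to 468 against 542 to 565 CPM (1 of 12 called higher). Pericyte and smooth muscle markers summed to 790 to 1205 against 1168 to 1221 (1 of 10 called higher). Erythroid markers summed to 26.1 to 42.7 against 46.9 to 134.8 (0 called). Lower sums were those of fibroblast markers, 39347 to 47457 against 35128 to 35694 CPM (8 of 12 below 0, 0 called). Schwann cell markers were also lower, at 24.4 to 48.2 against 18.5 to 24.1 (6 of 7 below 0, 0 called). For Smad2/3 the same sums were 34.4 to 36.8 against 32.2 to 33.6 CPM for myeloid markers and 61.4 to 70.2 against 36.6 to 42.8 for epicardial markers, with 0 called in either list. Endothelial markers summed to 269.9 to 544.0 against 163.2 to 263.7 CPM, with 11 of 12 below 0, and cardiomyocyte markers to 185 to 218 against 129 to 131, with 9 of 11 below 0 and 0 called in either list. Fibroblast markers summed to 23822 to 27674 against 19393 to 19667 CPM (3 of 12 called lower). This list holds collagens and the driver genes Postn and Tcf21, so its sum need not follow the number of fibroblasts. Pericyte and smooth muscle markers summed to 909 to 1625 against 830 to 1106 (1 of 10 called lower). Of all tested genes, 0.856% were called lower in the Smad2/3 comparison. No marker of these lists was at 0 in all libraries, and the part of other cells in the family's values was not tested in either comparison.

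**Figure D3:**
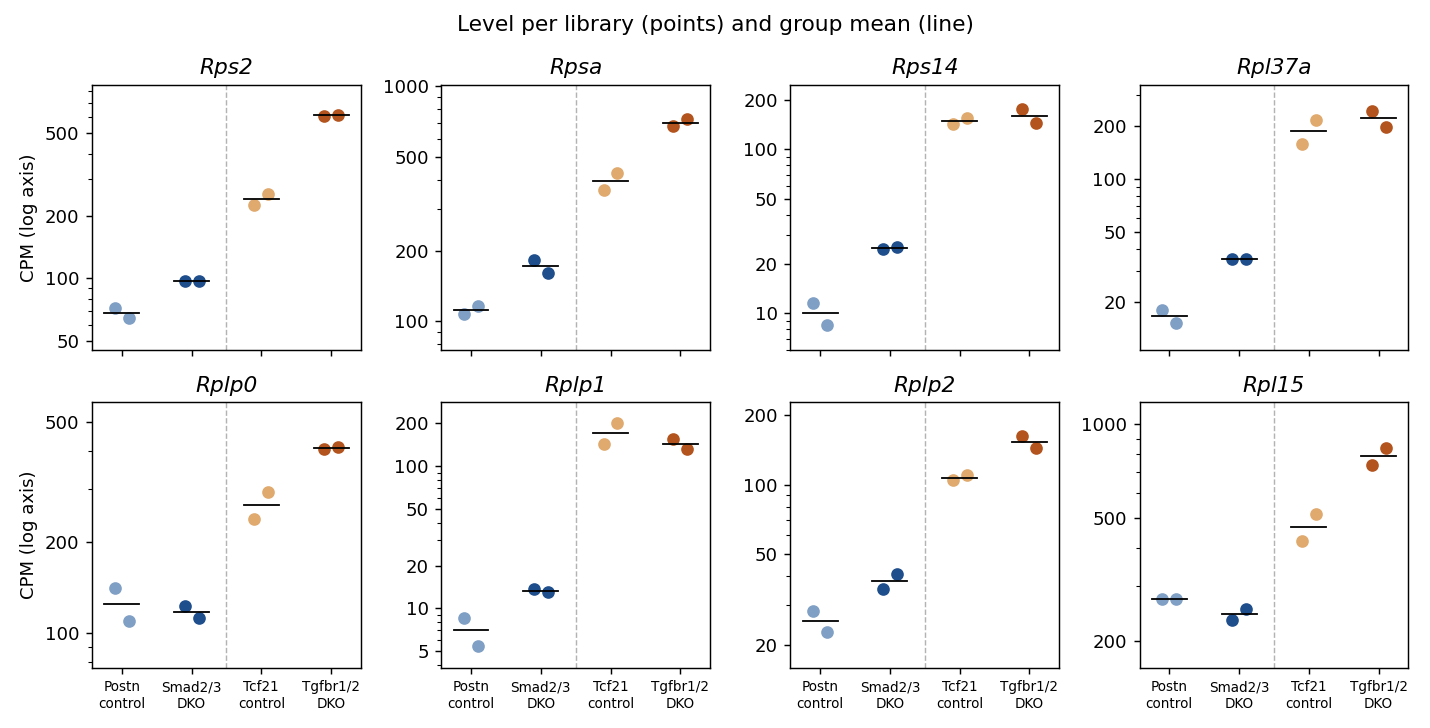
Level of 8 ribosomal protein genes in each library (points, CPM on a log axis whose range differs between panels) with the group mean (line); the dashed line separates the Postn run from the Tcf21 run. Rps2 and Rpsa stand highest in the Tgfbr1/2 DKO libraries, Rps14 and Rpl37a differ mainly in the Smad2/3 comparison and between the runs, and Rplp1 runs from 5.46 CPM in a Postn control to 199.8 in a Tcf21 control.

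The P stalk, the flexible arm of the large subunit that recruits elongation factors, is built from Rplp0, Rplp1 and Rplp2 and its 3 genes gave unlike values. Rplp0, the base of the stalk, measured 140.3 and 109.6 CPM in the Postn controls and 122.4 and 112.5 in the Smad2/3 DKO libraries, with overlapping groups (log2 fold change −0.15 ± 0.19, adjusted p = 0.809 with edgeR). In the Tcf21 controls it measured 238.2 and 291.9 CPM and in the Tgfbr1/2 DKO libraries 405.6 and 412.8, without overlap (0.70 ± 0.21, adjusted p = 0.0987). Rplp1 measured 8.52 and 5.46 CPM in the Postn controls, 13.6 and 13.0 in the Smad2/3 DKO libraries, 143.1 and 199.8 in the Tcf21 controls and 154.6 and 131.5 in the Tgfbr1/2 DKO libraries. Its groups were separate in the Smad2/3 comparison (0.86 ± 0.39) and overlapped in the Tgfbr1/2 comparison (−0.19 ± 0.22). Rplp2 measured 28.3 and 22.8 CPM, then 35.1 and 40.8, then 104.7 and 109.7, then 162.5 and 144.8 in the same order, and lay above both controls in both comparisons (0.51 ± 0.26 and 0.60 ± 0.18). None of the 3 stalk genes passed in either comparison in the main edgeR fit. In the Tgfbr1/2 comparison Rplp0 passed with DESeq2 (adjusted p = 0.0405) and with edgeR without the low-count filter (0.0427).

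The difference between the effects was tested directly, as the Smad2/3 effect minus the Tgfbr1/2 effect in a fit of all 8 libraries. Of 80 members tested, 0 passed with edgeR, against 1.83% of all 17772 tested genes (0.664% positive and 1.17% negative), and DESeq2 called 3, where it called 6.29% of all tested genes. At an unadjusted p under 0.05 stood 8 members, 5 positive (7.91% of all tested genes) and 3 negative (9.49%), together 17.4% of all tested genes. The differences of these 8 were Rpl15 −1.07 ± 0.27 (SE; adjusted p = 0.0788), Rps2 −0.97 ± 0.24 (0.0760), Rps14 1.08 ± 0.28 (0.0839), Rplp1 1.05 ± 0.35 (0.161), Rplp0 −0.86 ± 0.28 (0.149), Rps9 0.74 ± 0.26 (0.177), Rpl37a 0.70 ± 0.30 (0.252) and Rps21 0.70 ± 0.31 (0.284), all from edgeR on the log2 scale. The 3 negative ones, Rpl15, Rps2 and Rplp0, measured 64.5 to 274.0 CPM in the Postn controls, and the 5 positive ones 5.17 to 51.6 CPM. The Postn control level enters the difference with a minus sign, and the 8 were picked by p from these values. These levels are therefore no independent pattern. The median difference over the 80 members was −0.06, or −0.07 relative to the median of all tested genes. Scaling by library totals alone moved the median of all tested genes from 0.013 to 0.158 and left the members at −0.07 relative to it. Without Postn control HK3 the members' median was 0.15, and without Tcf21 control HK6 it was 0.04. Relative to all tested genes these were 0.05 and 0.10. Without Smad2/3 DKO HK15 the members' median was −0.04, or 0.03 relative to all tested genes. The sign of the median therefore rested on single libraries. The medians of the family in the 2 comparisons were thus not shown to differ.

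The control groups of the runs differed more from each other than DKO from control. Of the 76 members compared (tested in the difference, without paralogs and without the entry labelled Rpl24), 72 were higher in both Tcf21 controls than in both Postn controls and 2 were lower in both. The median ratio was 2.48, against 1.32 over 14090 genes with a mean above 1 CPM, of which 49.6% were higher in both Tcf21 controls. The ratios spanned a wide range. Rplp1 was 24.5-fold higher in the Tcf21 controls, Rps14 14.9-fold, Rps10 12.3-fold, Rps21 12.0-fold and Rpl37a 11.2-fold. Rps6, in contrast, measured 733.7 and 555.7 CPM in the Postn controls and 439.1 and 516.0 in the Tcf21 controls, a ratio of 0.741, and Rps15a had a ratio of 0.854. Rpl5, a partner of the 5S ribosomal RNA, was nearly level at 1.03. Run, driver and cell population cannot be told apart here, so these ratios describe libraries and cannot be assigned to any one of them.

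Across the 76 members, the log2 ratio of the control groups went with the GC content of the transcript (Spearman rho = 0.603) and against its length (−0.428 with log2 length). Over 13955 genes the same coefficients were 0.503 and −0.205, so a relation with GC content also ran through the expressed genes at large. The points share the same 4 libraries, and genes are not independent replicates, so no p is given. Within each run the relation was weaker: the log2 fold changes had a rho of 0.227 with GC content and −0.309 with length in the Smad2/3 comparison, and 0.310 and 0.081 in the Tgfbr1/2 comparison. With a loess trend in length removed over all genes, the members' median was 0.29 in the Smad2/3 comparison, with 70 of 80 above 0, and 0.40 in the Tgfbr1/2 comparison, with 75 of 81 above 0. With a trend in GC content removed it was 0.41 and 0.45.

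**Figure D4:**
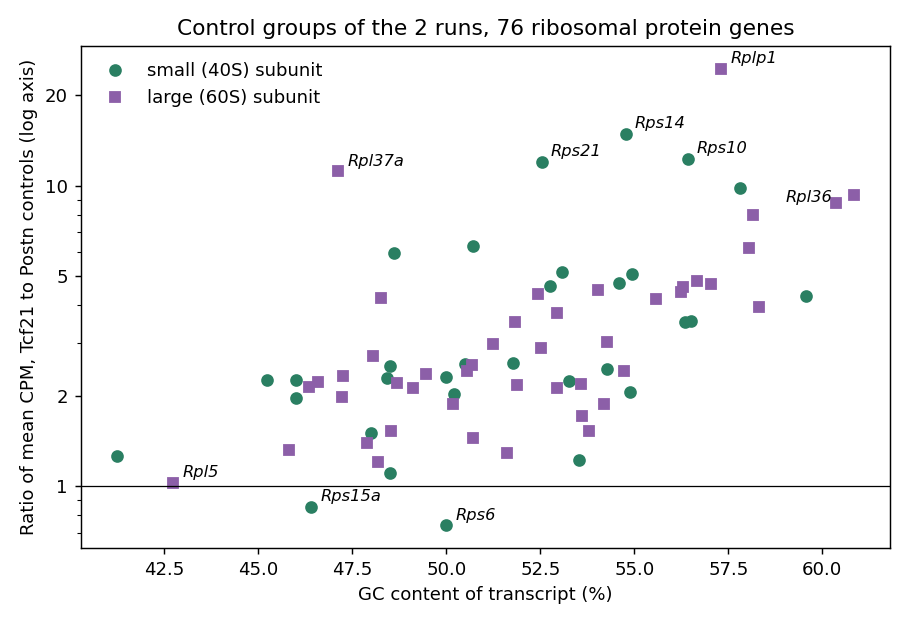
Ratio of mean CPM in the Tcf21 controls to that in the Postn controls, on a log axis, against the GC content of the transcript (percent) for 76 ribosomal protein genes; circles are small-subunit and squares large-subunit genes, and the line marks a ratio of 1. Most points lie above the line, from 0.741 for Rps6 to 24.5 for Rplp1, and the ratio is larger for GC-rich transcripts (rho = 0.603).

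The members were also grouped by the pyrimidine run at the start site. The 20 members with a run of at least 5 bases had a median log2 fold change of 0.48 in the Smad2/3 comparison and the 40 without one 0.41, and in the Tgfbr1/2 comparison the medians were 0.52 (20 genes) and 0.45 (41 genes). The difference between these medians was not tested. The grouping rests on annotated starts, so a member without a run here can still have a TOP tract at the start used in the cells. Rpl15 and Rpl35 carry the longest of the printed runs, and their log2 fold changes in the Smad2/3 comparison were −0.22 and 0.86.

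Ribosomal proteins that carry other symbols were set beside the family. Fau, a small-subunit protein made fused to a ubiquitin-like protein, Rpl36al, and Gnb2l1, the scaffold protein now called Rack1, had a median log2 fold change of 0.36 in the Smad2/3 comparison and 0.72 in the Tgfbr1/2 comparison, and all 3 lay above 0 in each. Rpl36al passed in the latter (94.6 and 96.5 CPM in Tcf21 controls, 164.1 and 156.2 in Tgfbr1/2 DKO, 0.82 ± 0.18, adjusted p = 0.0318 with edgeR), a call lost without each of the 4 libraries (up to 0.153). Fau had the highest value of the 3 in the Smad2/3 comparison (20.4 and 17.8 against 37.7 and 39.0 CPM, 0.94 ± 0.26, adjusted p = 0.114 with edgeR). None of these 3 genes is among the 84, and 2.63% of all tested genes were called higher in the Tgfbr1/2 comparison.

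Among 16 elongation factors and other TOP genes, 0 passed in either comparison, with medians of 0.18 and 0.25. Eef1a1, which brings tRNA to the ribosome, measured 1805 and 1354 CPM in the Postn controls and 2588 and 2269 in the Smad2/3 DKO libraries (0.56 ± 0.17, adjusted p = 0.141 with edgeR). Eef1g, a subunit of the factor that recharges it, differed between the comparisons by −1.46 ± 0.29 (adjusted p = 0.0351, edgeR), the only gene of this list to pass that test. That call was kept without Tgfbr1/2 DKO HK2 and lost without each of the other 7 libraries, with an adjusted p of up to 0.125. Of 3 host genes of small nucleolar RNAs tested, 1 passed in the Smad2/3 comparison, where 0.45% of all tested genes were called higher. Gas5, a TOP transcript whose introns hold such RNAs, rose there from 423.7 and 420.6 to 685.6 and 842.6 CPM (0.80 ± 0.15, adjusted p = 0.0340 with edgeR). The call was lost without Smad2/3 DKO HK16 (adjusted p = 0.187) and without Postn control HK3 (0.0538). In the Tgfbr1/2 comparison Gas5 measured 517.8 and 458.2 against 461.1 and 388.8 CPM (−0.12 ± 0.20), and the difference between the effects had an adjusted p of 0.0906 with edgeR. Snhg12 measured 16.2 and 19.5 CPM in the Tcf21 controls and 25.2 and 27.4 in the Tgfbr1/2 DKO libraries (0.63 ± 0.23, adjusted p = 0.158 with edgeR).

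The genes that make and drive ribosomes gave mixed values. Of 47 biogenesis genes, 24 lay above 0 in the Smad2/3 comparison (median 0.003) and 35 in the Tgfbr1/2 comparison (median 0.34), and 0 passed in either. Ncl, the nucleolar protein nucleolin, measured 1297 and 1402 CPM in the Postn controls and 1812 and 1799 in the Smad2/3 DKO libraries (0.36 ± 0.13, adjusted p = 0.250 with edgeR). Taf1d, a subunit of the RNA polymerase I selectivity factor, measured 31.3 and 42.3 against 62.4 and 74.9 CPM in the same comparison (0.84 ± 0.23, adjusted p = 0.116). In the Tgfbr1/2 comparison, Nop10, a component of box H/ACA particles, had a log2 fold change of 0.86 ± 0.24 (adjusted p = 0.0797) and Bop1, a processing factor of the large subunit, of 0.83 ± 0.27 (0.116). Of 29 genes listed by symbol as initiation factors the medians were −0.03 and 0.43, and 1 passed, in the Tgfbr1/2 comparison (2.63% of all tested genes called higher). It was Eif5a, which is in this list by its symbol and helps ribosomes through stalling sequences. Eif5a measured 297.1 and 214.6 CPM in the Tcf21 controls and 446.2 and 494.9 in the Tgfbr1/2 DKO libraries (0.97 ± 0.22, adjusted p = 0.0364 with edgeR). The call was lost without Tcf21 control HK7 (adjusted p = 0.143) and without Tgfbr1/2 DKO HK4 (0.182). Eif4e, which binds the mRNA cap, measured 281.6 and 297.2 CPM in the Postn controls and 230.4 and 221.0 in Smad2/3 DKO (−0.42 ± 0.15, adjusted p = 0.225 with edgeR). Of 21 growth regulators 0 passed, with medians of 0.03 and 0.04. Myc, a transcription factor known to drive ribosome production, measured 342.4 and 335.3 CPM in the Tcf21 controls and 361.1 and 702.2 in the Tgfbr1/2 DKO libraries, where HK4 alone stood apart. Tsc1, which restrains mTOR, had a log2 fold change of −0.51 ± 0.27 in the Smad2/3 comparison (adjusted p = 0.466 with edgeR), and Trp53, the gene of p53, one of 0.39 ± 0.19 in the Tgfbr1/2 comparison (0.279).

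Other housekeeping lists were set beside the family. For Smad2/3 the medians were −0.02 for 31 proteasome genes, 0.12 for 77 genes of the respiratory chain and 0.14 for 73 genes of the mitochondrial ribosome, with 0 called in each, against 0.42 for the cytosolic ribosomal proteins. In the Tgfbr1/2 comparison they were 0.56, 0.52 and 0.47, beside 0.50. There, 5 proteasome genes and 10 of the respiratory chain rose, and 1 of the mitochondrial ribosome fell. Of all tested genes, 2.63% were called higher and 1.31% lower in that comparison. These medians stand as descriptions, without a test of one list against another.

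**Figure D5:**
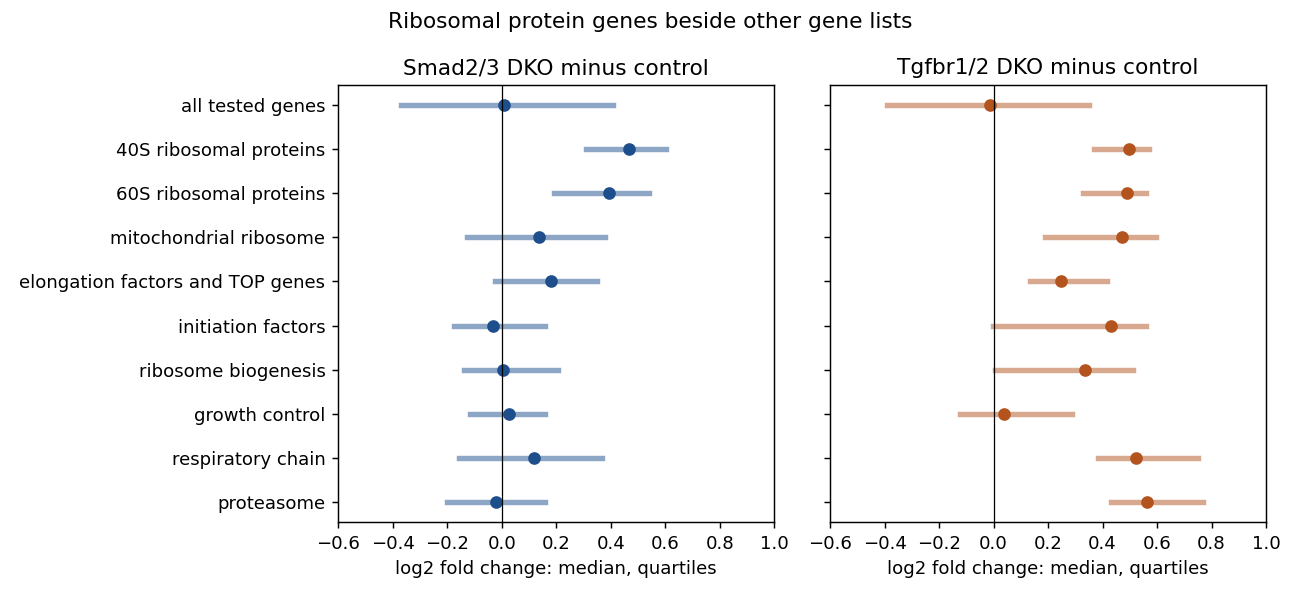
Median (point) and quartiles (bar) of the log2 fold change for ribosomal protein genes and other gene lists in the Smad2/3 comparison (left) and the Tgfbr1/2 comparison (right). Among the lists drawn, the 40S and 60S genes lie highest on the left, at 0.47 and 0.39; on the right respiratory chain (0.52) and proteasome (0.56) genes lie beside them.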

How the data were processed

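RNA-seq values of 8 libraries in 4 groups of 2 were used. The authors deposited expected counts per gene, named raw per the file headers; mm10 is the build per the submitters' processing notes, and the aligner and counting tool were not given in the sources used here. Their deposited tables also give log2 fold changes, computed by the authors from log2 values, which were used only where named. Total RNA was amplified with Ovation RNA-Seq System v2 and tagmented with Nextera XT, per the labels' protocols, with no strand step described, so overlapping genes on opposite strands cannot be told apart.

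Expected counts were rounded and summed by symbol (278 symbols had several entries). CPM is the unrounded count per 1000000 counts of the library. Each comparison was fitted on its own 4 libraries (edgeR 4.0.16, R 4.3.3; TMM, filterByExpr, robust quasi-likelihood F test, two-sided), and the difference of effects as the interaction in all 8. P-values were Benjamini-Hochberg adjusted over all tested genes, with a threshold of 0.05. SE was derived from the F statistic. Transcript length and GC content come from GENCODE vM21, on GRCm38, the same assembly as mm10, and use the shortest principal transcript. On simulated counts, the Smad2/3 design found 41% of 2-fold and 87% of 4-fold changes, the Tgfbr1/2 design 52% and 96%, and the difference 4% and 66%. The changed genes were drawn only from genes above a minimum mean level, so these values do not cover genes of low level. False calls were 9 of 137, 18 of 166 and 7 of 77, a share above the nominal 0.05 in each.

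The members and lists were chosen with earlier results of these data known. Named genes were members that passed, the 4 highest and 4 lowest in each comparison, the 5 highest and 5 lowest per kilobase, the P stalk, paralogs, members printed with a sequence, ribosomal proteins with other symbols (1 of them is not reported here), targeted genes, and of the other lists those called or else the 2 with the smallest p. Rps15a, Rpl5, Rpl36, the overlapping genes and Malat1 were named after their values were seen. Alternatives were DESeq2 1.42.0, other scalings, no low-count filter, no robust estimation, all 8 libraries, unsummed entries, added pseudogene counts, removed length or GC trends (loess span 0.5), other member sets, and leaving out each library. Removal of the GC trend and the set without the entry labelled Rpl24 were chosen after seeing the data.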

Additional observations from a re-analysis of the deposited data

Results flagged for a closer look

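Among the named genes, 6 were flagged because both DKO libraries lay on opposite sides of their controls in the Smad2/3 and Tgfbr1/2 comparisons. Other genes of the lists did so too, for example Eif3b, with a difference of −1.15 ± 0.33 (SE, adjusted p = 0.110 with edgeR). Rpl3l did so as well, at no more than 0.504 CPM, and was not tested in the Smad2/3 comparison. How many of all tested genes did so was not counted. In the Smad2/3 comparison both DKO libraries lay above both controls for 25.4% of all tested genes and below both for 18.9%. In the Tgfbr1/2 comparison these shares were 21.7% and 29.3%. The count of 6 is therefore not read as a result about the named genes. Eef1g passed the test of the difference with edgeR, at −1.46 ± 0.29 on the log2 scale (Smad2/3 effect minus Tgfbr1/2 effect, adjusted p = 0.0351; up to 0.125 without 1 library). It measured 269.6 and 249.9 CPM in the Postn controls, 193.2 and 160.7 in Smad2/3 DKO, 305.8 and 349.7 in the Tcf21 controls and 485.0 and 620.6 in Tgfbr1/2 DKO, so both DKO libraries lay below their controls in the first comparison and above them in the second.

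The other 5 also had both DKO libraries on opposite sides of their controls in the 2 comparisons, but the test of the difference was not passed with edgeR. The difference was −1.07 for Rpl15 (adjusted p = 0.0788), 0.74 for Rps9 (0.177), −0.91 for Pabpc1 (0.134), 0.87 for Eif4a2 (0.110) and 0.68 for Tgfbr1 (0.188). Rpl15 and Pabpc1, the poly(A)-binding protein, lay above their controls in the Tgfbr1/2 comparison, and Rps9 and Eif4a2, an RNA helicase of initiation, in the Smad2/3 comparison. Tgfbr1, a targeted gene of the Tgfbr1/2 comparison, measured 230.9 and 225.1 CPM in the Postn controls and 355.8 and 292.5 in Smad2/3 DKO.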

How the results depend on the processing

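The number of members called moved with the tool. The calls over all tested genes, given in parentheses, moved too. In the Smad2/3 comparison 0 were called (1.31%), but 4 without the low-count filter (3.52%), 3 with DESeq2 (4.72%) and 1 with all 8 libraries fitted (1.02%). In the Tgfbr1/2 comparison 2 were called (3.94%), 8 without the filter (4.97%), 9 with DESeq2 (6.78%), and 1 with size factors of the DESeq2 type, without robust estimation, or without any one library (lowest and highest 1). For the difference 0 were called (1.83%), but 4 without the filter (4.69%) and 3 with DESeq2 (6.29%). Medians without 1 library ran from 0.27 to 0.58 in the Smad2/3 comparison, from 0.34 to 0.66 in the Tgfbr1/2 comparison and from −0.23 to 0.15 for the difference, which was also 0.085 under library totals, a scaling that moved the median of all genes alike.

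Library totals moved the median of all tested genes from 0.007 to 0.065 in the Smad2/3 comparison and from −0.012 to −0.092 in the Tgfbr1/2 comparison, and with this common shift some genes near 0 changed sign: the entry labelled Rpl24 (0.0015, Smad2/3), Rpl7l1 (−0.014) and Rpl22 (−0.027, both Tgfbr1/2) and Rplp2 (0.054, difference). Leaving out 1 library gave ranges across 0 in the Smad2/3 comparison for Rplp0 (−0.33 to 0.061), the entry labelled Rpl24 (−0.12 to 0.017), Rpl7l1 (−0.16 to 0.22), Rpl22l1 (−0.24 to 0.58), Rps27l (−0.013 to 0.074) and Smad3 (−0.62 to 0.030). In the Tgfbr1/2 comparison they were Rplp1 (−0.45 to 0.14), Rpl7l1 (−0.17 to 0.38), Rps9 (−0.21 to 0.045) and Rpl22 (−0.12 to 0.24), and for the difference Rplp2 (−0.26 to 0.10). The causes of the changes without 1 library were not tested.

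No paired analysis was possible because the HK numbers only name libraries and the groups compared share none. The share without mitochondrial genes could not be run, as no symbol analysed here begins with mt-. Where a group keeps 1 library, its spread is taken from the other group. With 2 libraries a group, single genes with 2-fold differences were often below what the tests can call, and floors in CPM cover counting error only.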
